A study of Arabidopsis thaliana with 12 samples.

Results

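AT1G65570 encodes the root cap polygalacturonase of Arabidopsis thaliana. It was taken as the 1 probe set whose annotation names that locus and no other, out of 22746 probe sets tested on the ATH1 array, so it is 1 of 13355 genes that have a probe set of their own. No probe set names it together with another gene. By their treatment labels, seedlings 3 days after germination spent 6 h on their medium, though titles of the DMSO samples give an earlier time. RNA came from the last 4 mm or so of the root. The 4 groups were the triple mutant ibr1ibr3ibr10 on 10 µM indole-3-butyric acid (IBA), ibr1ibr3ibr10 on DMSO, the wild type Col-0 on 10 µM IBA, and Col-0 on DMSO, the solvent control. Each group held 3 independent biological replicates, each a pool of at least 120 root tips on 1 array. All 3 mutations are carried together, so no single locus of the 3 can be read from these groups.

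Polygalacturonases cut homogalacturonan, the pectin that glues neighbouring plant cells to each other. The enzyme encoded by AT1G65570 is known from the outermost root cap, where cells loosen and are shed, and its gene lies downstream of the NAC transcription factors that mature the cap, among them BRN1, which binds its promoter. IBA is a storage form of auxin. Peroxisomal enzymes shorten its side chain and release indole-3-acetic acid, and the IBR1, IBR3 and IBR10 proteins belong to that route.

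The values are log2 levels of the robust multi-array average (RMA), which sets each array relative to the bulk of its transcripts. Over all probe sets they ran between 1.401 and 13.4, with a median probe set mean of 5.24. Arrays of 1 group correlated at 0.995 to 0.998, and 0 pairs of arrays were identical. A probe set whose mean over the 12 arrays was under 3.24, the 30th percentile of means, is called dim here. It is a position among the probe sets and says nothing of background. The number of arrays limits the precision.

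AT1G65570 was a well-filled probe set, with a mean of 7.51 log2 units over the 12 arrays. In ibr1ibr3ibr10 on IBA its level was 7.49, 7.53 and 7.65. In ibr1ibr3ibr10 on DMSO it was 7.58, 7.86 and 7.59. In Col-0 on IBA it was 7.19, 6.78 and 6.73. The 3 Col-0 root tip pools on IBA were thus the lowest of all 12, and the highest of them lay 0.29 log2 units under the lowest of the others. In Col-0 on DMSO the level was 8.08, 7.62 and 7.999, the highest group, although its second replicate fell inside the range of the mutant on DMSO. A gene with every Col-0 IBA array below every other array was not rare: 5.32% of probe sets showed it.

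**Figure D1:**
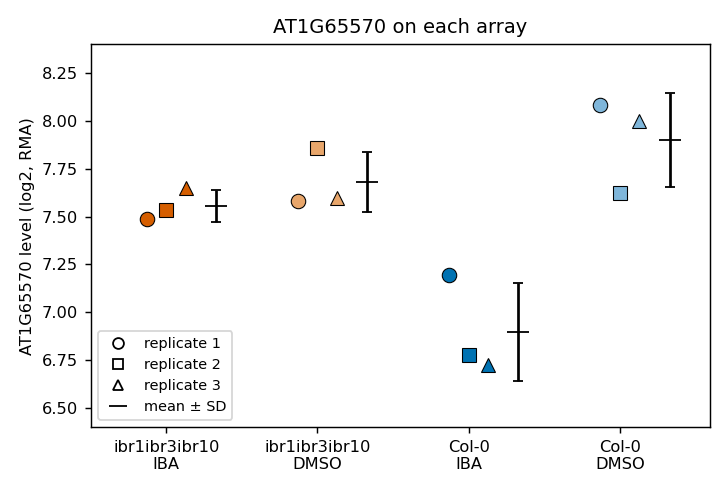
The log2 level of AT1G65570 (vertical axis, RMA log2 units) is plotted for each array by group, with the mean and SD of the 3 replicates beside the points. The 3 arrays of Col-0 on IBA lie between 6.73 and 7.19, and the 9 others lie at 7.49 or above.

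The group means were 7.56 ± 0.08 in ibr1ibr3ibr10 on IBA, 7.68 ± 0.16 in ibr1ibr3ibr10 on DMSO, 6.90 ± 0.26 in Col-0 on IBA and 7.90 ± 0.25 in Col-0 on DMSO (SD, n = 3 each). In order of level, Col-0 on DMSO came first, then the mutant on DMSO, then the mutant on IBA, and Col-0 on IBA last. Neighbours among the first 3 groups overlapped in their arrays, while the last 2 did not. Set against the other probe sets of the same array, the gene stood at the 80.1 to 82.2 percentile in the mutant on IBA and at the 81.3 to 84.3 percentile in the mutant on DMSO. It stood at the 70.4 to 76.5 percentile in Col-0 on IBA and at the 82.0 to 86.2 percentile in Col-0 on DMSO. The transcript therefore stayed among the brighter signals in every array, including the 3 where it was lowest.

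The first comparison asks what added IBA does to the gene in wild-type root tips. AT1G65570 fell by 1.003 log2 units in Col-0 on IBA (SE 0.14, 95% interval -1.30 to -0.71), to 49.9% of the DMSO level. The adjusted p was 0.000106 (limma over all 22746 probe sets, Benjamini-Hochberg), and the fall was seen in 3 of 3 arrays, with a gap of 0.43 log2 units between the groups. Every Col-0 IBA array lay below every Col-0 DMSO array for 20% of probe sets. In the same comparison 11.4% of probe sets were called lower and 23.5% were called in either direction, a call meaning an adjusted p under 0.05. Of the 2587 called lower, 124, or 4.79%, had a larger fall. Taken as a single value, the difference had an exact permutation p of 0.1, two-sided, which is the smallest that 3 arrays against 3 allow. In bulk tissue, fewer root cap cells in the segment and less transcript per cell cannot be told apart.

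The same question in the mutant gave a change of -0.12 log2 units (SE 0.14, 95% interval -0.42 to 0.17). It did not pass the test (limma, adjusted p = 0.668), in a comparison where 9.36% of probe sets did, and the arrays of both media overlapped. The interval leaves room for a fall of up to 0.42 log2 units, so it does not show that the mutant lacks a response. Tested directly, the IBA change was 0.88 log2 units higher in ibr1ibr3ibr10 than in Col-0 (SE 0.20, 95% interval 0.46 to 1.30, limma adjusted p = 0.0137). A higher difference of this kind was called for 2.95% of probe sets, and 167 of those 672 were larger.

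Between genotypes, the level on IBA was higher in ibr1ibr3ibr10 than in Col-0 by 0.66 log2 units (SE 0.14, 95% interval 0.36 to 0.95), or 1.58-fold, with an adjusted p of 0.00553 in limma. All 3 mutant arrays lay above all 3 Col-0 arrays, and 5.95% of probe sets were called higher in the mutant on IBA. On DMSO the mutant minus Col-0 difference was -0.22 log2 units (SE 0.14, 95% interval -0.52 to 0.07) and did not pass the test (limma, adjusted p = 0.526); 2.42% of probe sets were called there. These comparisons share arrays, so they are not independent of each other. The combination of a called fall in Col-0, no call in the mutant and a called higher difference was met by 528 probe sets, or 2.32%, of which 87 fell more in Col-0 than AT1G65570.

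**Figure D2:**
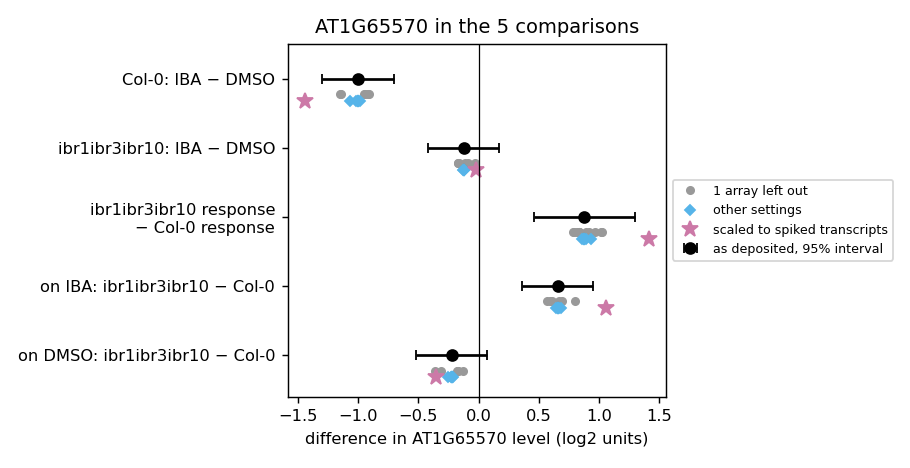
Each row is 1 comparison of AT1G65570, and the horizontal axis gives the difference in log2 units, first-named group minus second. Black points are the limma estimates with 95% intervals, grey points leave out 1 array at a time, blue diamonds are other settings, and the pink star is scaling to the bacterial transcripts. The interval for Col-0 runs from -1.30 to -0.71, and that for the mutant, -0.42 to 0.17, crosses 0.

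Levels in an array depend on how arrays are set against each other, and the array's control probe sets for bacterial transcripts give a second scale. Whether such transcripts were added to these samples was not tested. The signal of these control probe sets lay near the median probe set mean of 5.24. Their mean was 4.78 to 4.94 log2 units in ibr1ibr3ibr10 on IBA and 4.81 to 5.02 in ibr1ibr3ibr10 on DMSO. It was 4.96 to 5.51 in Col-0 on IBA and 4.76 to 4.91 in Col-0 on DMSO, so 2 of the 3 Col-0 IBA arrays had a brighter control signal than any other array. With arrays scaled to these control probe sets, the gene fell by 1.44 log2 units in Col-0 on IBA (limma, adjusted p = 6.74e-10). Its SE was 0.17, beside 0.14 as deposited. All probe sets of an array share the error of its control mean, so this smaller p is not stronger evidence than the deposited one. The median of all probe sets was -0.48 there against -0.04 as deposited. This scaling moves all probe sets of an array by 1 amount, so the change relative to the median, -0.96 in Col-0 and 0.87 for the difference of responses, is the same on both scales by construction.

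The wider polygalacturonase family showed how far the fall in Col-0 was shared. Of 68 listed loci, 45 had a probe set of their own and 22 of these were not dim. In Col-0, 6 relatives rose and 6 fell out of 44, where 12.1% of probe sets rose and 11.4% fell, with a median of -0.07 log2 units, beside -0.04 over all tested probe sets. AT1G65570 had the lowest change of the 45. In ibr1ibr3ibr10, 4 rose and 0 fell by limma (5 and 1 at an unadjusted p under 0.05), where 5.49% of probe sets rose and 3.87% fell. The difference of responses was higher for 3 and lower for 2, where 2.95% of probe sets were higher and 3.54% lower. With scaling to the bacterial transcripts the Col-0 count became 3 higher and 33 lower, where 3.18% of all probe sets were called higher and 71.6% lower, so the family shifted with the array as a whole. The family was described from general knowledge after the values of AT1G65570 were known, and the relatives named below were chosen after their calls were seen.

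2 relatives had the same calls as AT1G65570 in Col-0, in the mutant and for the difference. AT3G06770, a pectin-degrading enzyme of the family, stood at 7.39, 7.31 and 7.31 log2 units in the mutant on IBA and at 7.35, 7.38 and 7.35 in the mutant on DMSO. In Col-0 it stood at 6.83, 6.77 and 6.72 on IBA and at 7.43, 7.46 and 7.43 on DMSO. The Col-0 IBA arrays were again the lowest, with little spread. It fell by 0.67 log2 units in Col-0 and changed by -0.03 in ibr1ibr3ibr10, and the difference of responses was 0.64 (limma, adjusted p = 0.000582). AT3G16850 stood at 7.31, 7.24 and 7.16 log2 units in the mutant on IBA and at 7.05, 7.09 and 7.18 in the mutant on DMSO. In Col-0 it stood at 6.60, 6.56 and 6.57 on IBA and at 7.22, 7.14 and 7.23 on DMSO. It fell by 0.62 log2 units in Col-0, with a mutant change of 0.13 and a difference of responses of 0.75 (limma, adjusted p = 0.000313). AT4G01890 fell by 0.87 log2 units in Col-0, the second lowest change of the family, but its mutant change was -0.30 and the difference of 0.57 did not pass the test (limma, adjusted p = 0.132).

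Other relatives went the opposite way. AT1G48100, known as PGX3 and linked to cell expansion and stomata, had the highest change. Its level averaged 3.07 ± 0.13 log2 units in ibr1ibr3ibr10 on IBA and 2.59 ± 0.15 on DMSO, against 4.72 ± 0.13 in Col-0 on IBA and 2.67 ± 0.24 on DMSO (SD, n = 3 each). Its rise was 2.05 log2 units in Col-0 and 0.48 in ibr1ibr3ibr10, with a difference of -1.56 (limma, adjusted p = 7.35e-05); only the mean in Col-0 on IBA was above the dim level. The mutant rise lost its call without mutant IBA replicate 1 (0.41) or without mutant DMSO replicate 2 (0.43) or 3 (0.45). AT2G43890 rose in both genotypes, by 1.30 log2 units in Col-0 and 1.62 in ibr1ibr3ibr10, and its difference of 0.32 did not pass the test. On DMSO it was higher in ibr1ibr3ibr10 than in Col-0 by 0.91 log2 units (limma, adjusted p = 0.0418), where 1.82% of probe sets were called higher. Leaving out any Col-0 DMSO array, or mutant DMSO replicate 1 or 2, ended that call (0.79 to 0.93). AT3G61490 rose by 0.83 log2 units in the mutant alone among the calls, with 0.16 in Col-0 and a difference of 0.67 (limma, adjusted p = 0.0123). The floral and abscission polygalacturonase ADPG1 (AT3G57510) was dim and changed by -0.13 log2 units in Col-0, without a call.

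**Figure D3:**
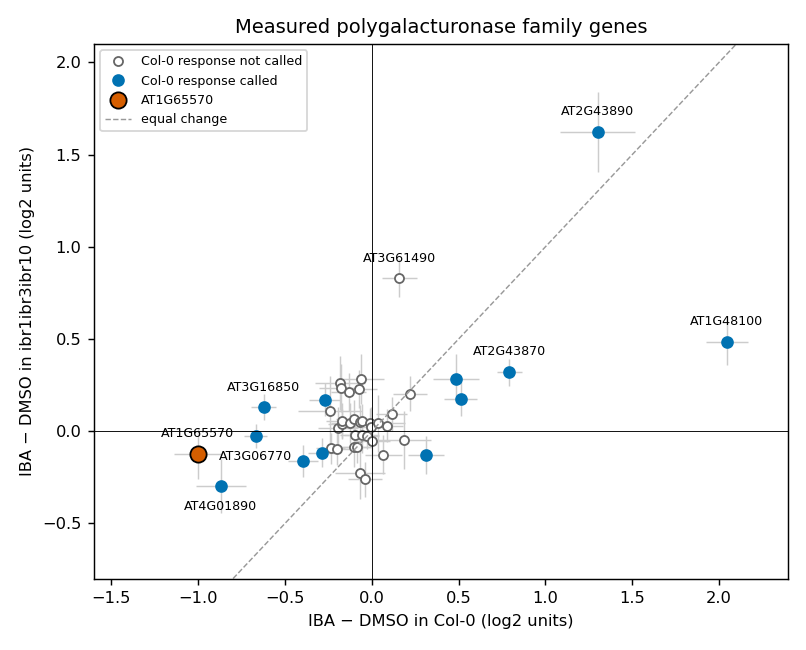
Each point is 1 of the 45 polygalacturonase family genes with a probe set of its own. The horizontal axis gives the IBA minus DMSO change in Col-0 and the vertical axis that in ibr1ibr3ibr10, in log2 units, with grey lines of 1 SE. AT1G65570 lies furthest left, at -1.003 and -0.12, and AT1G48100 furthest right, at 2.05 and 0.48.

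Other enzymes act on the same pectin. Pectate lyases cut it after its methyl groups are gone, and pectin methylesterases remove those groups. Of 26 pectate lyase loci, 23 were measured: 3 rose and 3 fell in Col-0, 0 were called in the mutant, and 2 differences were higher and 0 lower. The shares of all probe sets were 12.1% higher and 11.4% lower in Col-0, 5.49% and 3.87% in ibr1ibr3ibr10, and 2.95% and 3.54% for the difference. At an unadjusted p under 0.05 in limma, 2 were higher and 0 lower in the mutant, and 4 differences were higher and 4 lower. AT3G07010 fell by 0.66 log2 units in Col-0, with 0.08 in the mutant and a difference of 0.74 (limma, adjusted p = 0.0285), a call that ended on leaving out mutant IBA replicate 1 or 2, any mutant DMSO array, or replicate 2 or 3 of Col-0 on DMSO (0.71 to 0.77). Of 67 methylesterase loci, 45 were measured: 11 rose and 4 fell in Col-0, 3 rose and 1 fell in ibr1ibr3ibr10, and 2 differences were higher and 3 lower, beside those same shares. AT5G51520, on the methylesterase list, fell by 1.07 log2 units in Col-0, its mutant change was 0.37, and the difference was 1.44 (limma, adjusted p = 8.41e-05). Whether it encodes a methylesterase or an inhibitor of these enzymes was not checked. ATPMEPCRD fell by 0.95 log2 units in Col-0, with -0.09 in the mutant. PMEPCRF and ATPMEPCRB rose in Col-0 by 0.97 and 1.24 log2 units and were not called in the mutant, with changes of 0.19 and -0.17 there. For ATPMEPCRB only the mean in Col-0 on IBA, 4.09 log2 units, was above the dim level. PMEPCRF was already higher in the mutant than in Col-0 on DMSO, by 0.55 log2 units (limma, adjusted p = 0.00131). In that direction 1.82% of probe sets were called. The called fall in Col-0 with a called higher difference and no mutant call was met by 2 of 44 polygalacturonases besides AT1G65570. It was also met by 2 of 23 pectate lyases and 2 of 45 loci on the methylesterase list, beside 2.32% of all probe sets. The 2 pectate lyases are AT3G07010 and AT3G27400, a dim probe set. The fall of AT3G27400 in Col-0, -0.38 log2 units, only just passed (limma, adjusted p = 0.0492). It lost its call with quantile normalization, array weights, 1 probe set per gene, Col-0 fitted alone, or without replicate 2 or 3 of Col-0 on either medium (-0.42 to -0.23 for the last). Leaving out replicate 2 or 3 of Col-0 on DMSO thus ended a call that each of the 2 needed. On DMSO the mutant minus Col-0 difference of AT3G27400 was -0.58 log2 units (limma, adjusted p = 0.0312), where 0.602% of probe sets were called lower. Leaving out replicate 2 or 3 of Col-0 on DMSO, or any mutant DMSO array, ended that call (-0.61 to -0.45). Of 26 genes that build homogalacturonan, the annotation gave only the galacturonosyltransferase-family gene GAUT15 a probe set of its own. Its change was 0.36 log2 units in Col-0 and -0.07 in ibr1ibr3ibr10, neither called. The 3 lists of polygalacturonases, pectate lyases and methylesterases were mostly lower in Col-0 with scaling to the bacterial transcripts, with 33 of 44, 16 of 23 and 29 of 45 called lower, as were 71.6% of all probe sets.

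Whether other root cap genes moved with AT1G65570 could be read only in part. Of 9 genes for cap identity and cell detachment and 6 for the columella, the annotation gives 0 a probe set of their own. They were not analysed here. The annotation names no gene for 8730 of the 22746 probe sets tested, so probes for these genes may still be on the array. Of 7 genes that mark the programmed death of root cap cells, 4 were measured, and in Col-0 2 rose and 1 fell, where 12.1% of all probe sets rose and 11.4% fell. AT4G04460 encodes the aspartic protease PASPA3. Its level was 7.39, 7.34 and 7.48 log2 units in the mutant on IBA and 7.43, 7.51 and 7.49 in the mutant on DMSO. In Col-0 it was 7.51, 7.04 and 7.16 on IBA and 7.97, 7.81 and 7.97 on DMSO, with the IBA arrays below the DMSO arrays. It fell by 0.68 log2 units in Col-0 and changed by -0.08 in ibr1ibr3ibr10 (limma, adjusted p = 0.741), and the difference was 0.61 (limma, adjusted p = 0.0239). Leaving out mutant IBA replicate 1 or 3, mutant DMSO replicate 1, replicate 2 or 3 of Col-0 on IBA, or replicate 1 or 3 of Col-0 on DMSO ended that call (0.51 to 0.61). It was also lower in ibr1ibr3ibr10 than in Col-0 on DMSO, with a difference of -0.44 log2 units (limma, adjusted p = 0.0422), a direction in which 0.602% of probe sets were called and AT1G65570 was not; leaving out any 1 of the 6 DMSO arrays ended that call (-0.49 to -0.41). The peptidase gene scpl48 rose by 0.34 log2 units in Col-0, though with scaling to the bacterial transcripts its change was -0.10, and leaving out replicate 3 of Col-0 on IBA, or replicate 2 or 3 of Col-0 on DMSO, ended the call (0.25 to 0.33). AT4G18425, known as DMP4, rose by 0.53, but changed by 0.0850 without a call with that scaling (limma, adjusted p = 0.647), and AT2G14095 changed by -0.11 without a call. With scaling to the bacterial transcripts 0 of the 4 were called higher and 2 lower in Col-0 (limma), where 3.18% of all probe sets were called higher and 71.6% lower. Markers of other cell types in the segment were few. Of 5 root hair genes 2 were measured, both wall-loosening expansins. EXPA18 changed by 0.25 log2 units in Col-0 without a call and fell by 0.60 in ibr1ibr3ibr10, and EXPA7 changed by -0.14 in Col-0 without a call. EXPA7 fell by 0.26 in ibr1ibr3ibr10 (limma, adjusted p = 0.0389), a call that ended on leaving out any 1 of 5 of the mutant arrays (-0.29 to -0.23). With scaling to the bacterial transcripts the mutant change was -0.50 for EXPA18 (SE 0.18, beside 0.09 as deposited) and -0.16 for EXPA7, neither called. AGL42, of the stem cell niche, changed by 0.11 log2 units in Col-0 and 0.10 in ibr1ibr3ibr10, with no call in either. The label of a root cap gene rests on the annotation; in these segments of mixed tissue its cell type was not tested.

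The genes whose levels went most with AT1G65570 over the 12 arrays were taken from 4644 genes with enough signal and spread. The 8 highest Pearson correlations ran from 0.94 to 0.96, and 60 genes reached 0.9. The arrays share 4 groups and 1 normalization, so these are descriptions. AT1G52050, of the jacalin lectin family, led with 0.96, and its Col-0 change was -0.64 log2 units. AT3G49190, of a wax ester synthase family, had 0.96 and a Col-0 change of -0.93. AT3G19680 had 0.95 and a Col-0 change of -1.03, with -0.15 in the mutant. AT5G23400, a leucine-rich repeat protein gene, had 0.96 and a Col-0 change of -0.56. AT5G32450, AT3G56060, AT1G70990 and AT1G42480 made up the rest, with 0.94 to 0.95. All 8 were called lower in Col-0 and none was called in the mutant. For 2 of them, AT5G32450 (adjusted p = 0.0614, limma) and AT1G42480 (adjusted p = 0.0755, limma), the difference of responses was not called.

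Turned the other way, AT3G49350 had the lowest correlation, -0.94, and rose by 0.85 log2 units in Col-0. The metalloproteinase gene MMP (-0.92) rose by 0.90, and the jacalin lectin gene JAL22 (-0.92) rose by 2.24. AT1G21830 (-0.92) rose by 1.0004 on the probe set used, while its other probe set changed by 0.0960. Apart from the group means, the deviations of the 8 genes from their group means correlated with those of AT1G65570 at 0.68 to 0.88, a value that the choice of the genes partly sets. Only 2 of the 8 were also among the 8 highest by rank correlation.

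**Figure D4:**
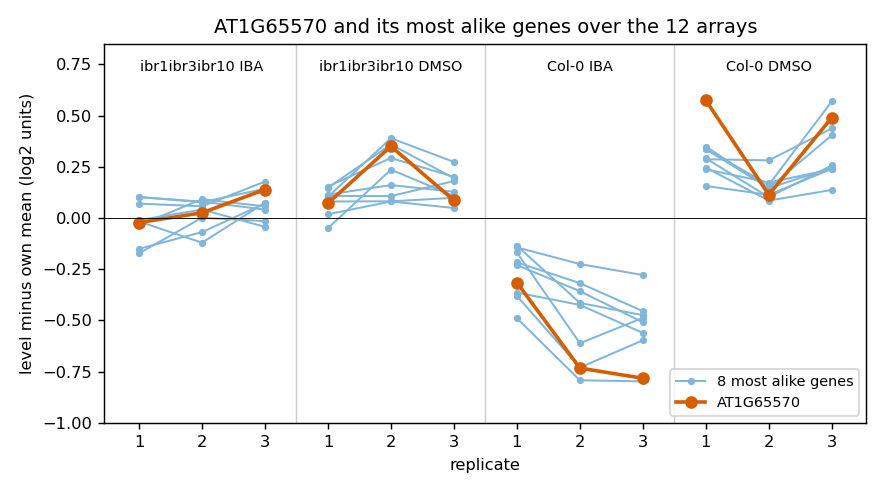
Levels of AT1G65570 and its 8 most alike genes are plotted by array, as the level minus the gene's own mean over the 12 arrays in log2 units. Points of 1 group are joined for reading only, since replicates have no order. In Col-0 on IBA all 9 genes lie below their own mean on each of the 3 arrays.

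Along the chromosome, the annotation places AT1G65560 directly before AT1G65570, and FRA3 (AT1G65580) follows with 1 gene between. In Col-0 AT1G65560 rose by 0.42 log2 units (limma, adjusted p = 0.0127), but with scaling to the bacterial transcripts its change was -0.0224, and leaving out replicate 2 or 3 of Col-0 on IBA, or replicate 2 of Col-0 on DMSO, ended the call (0.35 to 0.36). FRA3, an inositol polyphosphate phosphatase gene of fibre walls, changed by 0.0147 log2 units without a call. With that scaling FRA3 changed by -0.43 and was called lower (limma, adjusted p = 0.0195), as were 71.6% of all probe sets. Neither measured neighbour fell with AT1G65570 on the deposited scale.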

How the data were processed

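RNA of 12 root tip pools was hybridised to Affymetrix ATH1 arrays, 1 colour, 3 per group. The deposited values are log2 levels that the authors made by RMA with affy 1.40.0, per the submitters' processing notes. The sources used here do not give the set of arrays that RMA processed jointly. RMA hides a shift shared by most transcripts. Titles of DMSO samples give an earlier time than their treatment labels, and 6 h was used. If the titles were right, time would differ along with IBA, and their effects on the IBA responses could not be told apart. Titles shorten the genotype to ibr3, and the fuller genotype label was followed. Of 22810 probe sets, 64 controls were left out. The platform annotation names 1 gene for 13513 of the rest, several for 503 and none for 8730. Symbols follow RefSeq (TAIR10.1), whose start positions were used to order genes and find the neighbours of AT1G65570.

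A model with 1 mean per group was fitted in limma 3.58.1 (R 4.3.3, lmFit and eBayes) to all 12 arrays, with 8 residual and 5.62 prior degrees of freedom. p-values were two-sided and adjusted over 22746 probe sets within each of 5 contrasts (Benjamini-Hochberg, threshold 0.05). The steps were tested on simulated data. Likeness was Pearson's r over 12 arrays among genes with a mean of at least the 30th percentile and an SD of at least the median. Named genes were, by rule, the fixed pectin, root cap and marker lists, the nearest measured neighbours, the 8 most alike and the 4 most opposite genes. The wider enzyme lists, taken from general knowledge, were added after AT1G65570's values were seen, and their members were named by their calls. The gene, the lists and the tests were chosen with earlier results of these data known. A gene counted as measured only if the annotation names it alone on a probe set. The array may still carry probes for unmeasured genes. Markers of stem cells and root hairs were measured for 1 of 4 and 2 of 5 genes. Lists of endodermis, xylem, phloem, green tissue, polygalacturonase inhibitors and pectin acetylesterases had no gene measured in this sense. Alternatives were other scalings, filters, fits, blocks and omissions of single arrays.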

Additional observations from a re-analysis of the deposited data

Results flagged for a closer look

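The IBA response differed between the genotypes, by limma's test of the difference itself with Benjamini-Hochberg adjustment (mutant response minus Col-0 response, log2 units), for 25 of the 60 genes named here, some of them named for their calls; over all probe sets 6.50% were called. AT1G65570 had 0.88. Among polygalacturonases, AT3G16850 had 0.75, AT3G61490 0.67, AT3G06770 0.64, AT2G43870 -0.47 and AT1G48100 -1.56. Among pectate lyases, AT3G27400, a dim probe set, had 0.80 and AT3G07010 0.74. On the methylesterase list, AT5G51520, whose enzyme class was not checked, had 1.44, ATPMEPCRD 0.86, PMEPCRF -0.78, AT5G04960 -1.34 and ATPMEPCRB -1.41. For AT1G48100 and ATPMEPCRB only the mean in Col-0 on IBA was above the dim level. With scaling to the bacterial transcripts PMEPCRF had -0.24 and lost its call (limma, adjusted p = 0.346). The root cap death gene AT4G04460 had 0.61, and EXPA18, an expansin of root hairs, had -0.85, which became -0.31 without a call with that scaling (limma, adjusted p = 0.239). Of the alike genes, AT3G19680 had 0.87, AT3G49190 0.67, AT1G52050 0.65, AT5G23400 0.51, AT3G56060 0.47 and AT1G70990 0.46. Of the opposite genes, MMP had -0.68, AT3G49350 -0.81, AT1G21830 -0.89 and JAL22 -2.38. The calls of MMP (-0.15), AT3G49350 (-0.28) and AT1G21830 (-0.35) ended with that scaling, and that of MMP also with median centring (-0.63) and quantile normalization (-0.61). The alike and opposite genes were chosen on these same arrays, so their differences are descriptions.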

How the results depend on the processing

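AT1G65570 kept its direction and its side of the threshold in every alternative run: 16 of 16 for Col-0, 16 of 16 for the mutant, 22 of 22 for the difference of responses, 17 of 17 between genotypes on IBA and 17 of 17 on DMSO. Leaving out single arrays gave -1.15 to -0.91 log2 units for Col-0, -0.17 to -0.03 for the mutant, 0.79 to 1.03 for the difference, 0.57 to 0.81 on IBA and -0.36 to -0.13 on DMSO. With single arrays left out, the limma adjusted p reached 0.0426 for the difference and 0.0327 on IBA, under but near the 0.05 threshold. Within media, deviations correlated at 0.02 to 0.17 for equal replicate numbers and -0.13 to 0.07 for others. With a replicate block the Col-0 change was -1.003 and the difference 0.88 (limma, adjusted p = 0.0248). A block within media, added after the data were seen, gave limma adjusted p-values of 0.0428 for that difference and 0.0227 on IBA. Bacterial scaling used 24 control probe sets, narrowed from 27 after both results were seen. Over all 27, the Col-0 change was -1.38 and the difference 1.35.

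In the order Col-0, mutant, difference, genotypes on IBA and genotypes on DMSO they were 5345, 2129, 1478, 2508 and 550 as deposited. Scaling to bacterial transcripts gave 17010, 947, 11874, 13372 and 207, one probe set per gene 2720, 997, 734, 1280 and 248, and an adjusted p under 0.01 3354, 999, 751, 1535 and 253. Omitting single arrays gave 4195 to 5179, 1168 to 1829, 1109 to 1620, 1862 to 2683 and 277 to 468. The mutant count was 1298 without mutant IBA replicate 3, 1168 without mutant DMSO replicate 2 and 1398 without mutant DMSO replicate 3; the count on DMSO was 277, 363, 357 and 298 without mutant DMSO replicates 1 and 2 and Col-0 DMSO replicates 2 and 3. Of the probe sets called for Col-0, the share called higher was 51.6% as deposited, 34.7% with median centring and 4.25% with bacterial scaling. That share was 58.6% and 84.3% for the mutant with deposited and bacterial scales, and 45.5%, 57.1% and 98.0% for the difference with deposited, centred and bacterial scales. It was 53.9% and 97.4% on IBA, and 75.1%, 64.2% and 55.1% on DMSO. The cause was not tested.

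Bacterial scaling turned 11 changes of other genes: in Col-0 AT3G45010 (scpl48) -0.10, AT3G62110 -0.13, AT5G48900 -0.10, AT1G67750 -0.10, AT5G04960 -0.0207, AT3G05620 -0.0321, AT5G04970 -0.19, AT1G05310 -0.0150, AT1G65560 -0.0224 and AT1G65580 -0.43, and the difference of AT2G43870 0.0657. Of the 8 most alike genes, 2 stayed with Spearman's correlation, 8 without the filters, and 3 to 7 with 1 array left out. A fit of the compared groups alone was not run for the difference, which uses all 4, nor the block within media for the IBA responses. The differences of MMP (9 of 12 arrays), AT1G52050, AT3G49190, AT5G23400, AT3G56060 and AT1G70990 lost their call with some single arrays left out. AT3G56060's also ended with the replicate block (limma, adjusted p = 0.0659), the block within media (0.0871) and trend and robust settings (0.0612), AT5G23400's with the block within media (0.0540) and EXPA7's mutant call with the replicate block (0.0561) and the mutant fitted alone (0.0540).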
